A study of Mus musculus with 12 samples.

Results

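Cytosolic ribosomal protein genes encode the protein part of the ribosomes that translate nuclear mRNA. The genes described here were taken from the isoform table by symbol, as Rpl or Rps followed by digits and an optional letter, with Rplp0, Rplp1, Rplp2 and Rpsa, leaving out pseudogene symbols and the kinase genes whose symbols begin with Rps6k, and keeping genes with at least 1 isoform typed protein_coding. This gave 79 genes of 28852 in the table, 48 of the large subunit and 31 of the small subunit, on 19 chromosomes. Another 3 symbols of the same pattern had no protein_coding isoform and were left out. No measured value was used in the choice.

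The cells were bone marrow-derived mast cells (BMMCs) of BALB/c mice, grown in IL-3 and SCF. They were sequenced in 4 groups of 3 libraries, namely nano-SiO2 particles together with DNP-HSA (DNP-HSA+SiO2), DNP-HSA alone, SiO2 alone, and the blank control. DNP-HSA is an antigen that cross-links anti-DNP IgE on the mast cell surface. Neither a dose, a time nor IgE sensitisation is stated for the sequenced cells, and no source says whether the 3 libraries of a group were separate cultures, so each p-value measures the spread between libraries. In every group 1 label carries no number and the other labels carry 1 and 2, and values are listed below in the order unnumbered, 1, 2. The estimated counts per library totalled 55737606 to 76718065, with 11291 to 12346 genes at 1 FPKM (fragments per kilobase of isoform, scaled to library size) or more. The mast cell genes Kit (852 to 1513 FPKM), Fcer1a (2311 to 3253 FPKM) and Cpa3 (7353 to 9207 FPKM) were high in all 12 libraries. Of the other mast cell genes on the list, Tpsab1 (9.42 to 448 FPKM) and Mcpt4 (0.398 to 11.5 FPKM) varied widely between libraries. Hdc was at 5.88 to 28.1 FPKM in the blank libraries and at 34.3 to 366 FPKM in those of the other groups. Markers of T cells, eosinophils and erythroid cells were low, at 4.77 FPKM or less. Of these, 1 of 2, 2 of 3 and 2 of 3 were above 1 FPKM in some library. Neither fibroblast marker nor the B cell marker was above 1 FPKM. The 2 basophil markers and 7 of 8 macrophage and neutrophil markers reached 1 FPKM in some library. Among them, Mcpt8 of basophils reached 24.3 FPKM, and Lyz2 of macrophages and neutrophils 87.8 FPKM.

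Each ribosomal protein is needed in about equal amount, since nearly all of them are present once in every ribosome, and their mRNAs are among the most abundant in growing cells. Many of these mRNAs begin with a C followed by a run of pyrimidines, the 5′ terminal oligopyrimidine (TOP) tract, through which mTOR and the RNA-binding protein LARP1 govern their translation and stability. Mast cell activation through the IgE receptor engages the same mTOR pathway. The levels measured here are mRNA levels and say nothing of translation.

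Some of the annotated start sites carry this sequence feature. RefSeq promoter windows (GRCm38.p6, 250 bases before to 50 bases after the annotated start) were at hand for 59 of the 79 genes, in 71 windows. A C followed by at least 6 pyrimidines on the gene's strand, beginning within 5 bases of the annotated start, was present in 25.4% of these windows, against 5.64% of all 32851 promoter windows. Beginning within 30 bases of the start, it was present in 63.4% of the windows of these genes and in 27.8% of all windows. The 7 sequences shown run from 45 bases before the start to 25 bases from the start on. They are the 6 most abundant genes with a tract within 5 bases of the start, and Rplp2 of the ribosomal stalk, and capitals mark the tract.
Rps9 (chr7:3703996-3704065, plus strand): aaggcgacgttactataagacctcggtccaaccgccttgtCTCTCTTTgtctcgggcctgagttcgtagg
Rps27 (chr3:90213624-90213693, minus strand): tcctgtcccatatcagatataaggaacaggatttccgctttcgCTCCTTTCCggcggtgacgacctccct
Rpl13a (chr7:45128721-45128790, minus strand): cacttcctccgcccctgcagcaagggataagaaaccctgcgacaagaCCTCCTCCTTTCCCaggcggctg
Rps6 (chr4:86857343-86857412, minus strand): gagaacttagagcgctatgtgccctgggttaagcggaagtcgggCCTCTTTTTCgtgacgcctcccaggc
Rps26 (chr10:128626482-128626551, minus strand): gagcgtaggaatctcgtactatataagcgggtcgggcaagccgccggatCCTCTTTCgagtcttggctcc
Rps21 (chr2:180257334-180257403, plus strand): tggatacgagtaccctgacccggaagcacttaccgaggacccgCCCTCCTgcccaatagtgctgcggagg
Rplp2 (chr7:141447606-141447675, plus strand): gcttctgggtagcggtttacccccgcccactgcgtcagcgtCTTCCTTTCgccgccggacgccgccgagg

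In these 7 sequences the tract was 7 to 14 bases long. The letters CTTCCG, the core bound by GABP and other ETS factors, were found on either strand in 62.0% of the windows of these genes, against 16.9% of all windows. The letters AAGATGGC, part of the YY1 site, were in 9.86% against 2.75%, and the E-box letters CACGTG bound by MYC in 11.3% against 7.15%. These are matches of letters in a window, and binding was not measured.

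Ribosomal protein mRNAs were abundant and close to each other in level. Of the 79 genes, 78 passed the filter for testing, which asked for 1 FPKM in at least 3 of the 12 libraries. The one left out, Rpl3l, the striated muscle paralog of Rpl3, reached at most 0.263 FPKM. The mean over 12 libraries had a median of 299.8 FPKM across the 78 genes, against 8.69 FPKM across the 12862 tested genes, and 71 of the 78 were in the highest 10% of tested genes. The middle of the distribution was narrow, with quartiles of 218 and 419 FPKM and 57 genes between 100 and 600 FPKM. Small subunit genes had a median of 341 FPKM and large subunit genes a median of 292 FPKM.

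**Figure D1:**
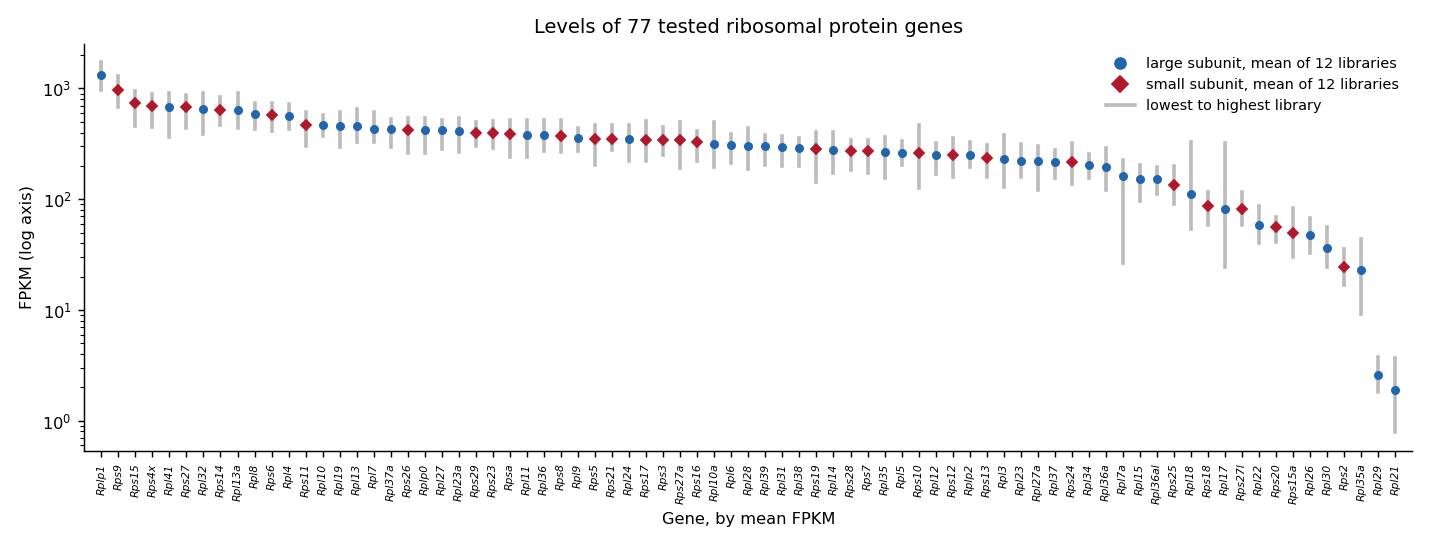
FPKM (log axis) of 77 tested ribosomal protein genes in order of mean level, with large subunit genes as circles, small subunit genes as diamonds, and a grey line from the lowest to the highest of 12 libraries. Most genes lie between 100 and 600 FPKM, Rplp1 is highest at a mean of 1335 FPKM, and Rpl29 and Rpl21 are far below the rest at 2.59 and 1.89 FPKM.

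The stalk protein gene Rplp1 (ENSMUSG00000007892, chromosome 9) was the highest. The stalk is the lateral arm of the large subunit that recruits the GTPase translation factors. Rplp1 had 1458, 1003 and 1294 FPKM in DNP-HSA+SiO2 libraries, 1381, 969 and 1643 in DNP-HSA libraries, 1539.9, 1715 and 976 in SiO2 libraries, and 1540.4, 1492 and 1006 in blank libraries. The 4 groups overlapped, and in each group 1 library was far below the other two. Rplp0, the stalk base (ENSMUSG00000067274, chromosome 5), had 502, 262 and 423 FPKM in DNP-HSA+SiO2 libraries, 490.2, 276 and 474 in DNP-HSA libraries, 494, 511 and 290.0 in SiO2 libraries, and 542, 490.0 and 282 in blank libraries. Rplp2 (ENSMUSG00000025508, chromosome 7), the partner of Rplp1, had 218, 194 and 273 FPKM in DNP-HSA+SiO2 libraries, 240.1, 194 and 319 in DNP-HSA libraries, 240.0, 327 and 202 in SiO2 libraries, and 267, 327 and 197 in blank libraries. The same library was the lowest of its group for all 3 stalk genes. Their log2 changes were 0.15 to 0.27 in DNP-HSA+SiO2, 0.18 to 0.26 in DNP-HSA and 0.23 to 0.35 in SiO2 against blank with TMM scaling, with standard errors of 0.28 to 0.38, and none passed the test.

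After Rplp1 the highest genes were Rps9, Rps15, Rps4x and Rpl41. Rps9, a small subunit protein whose yeast counterpart bears on decoding accuracy, had 935, 713 and 1043 FPKM in DNP-HSA+SiO2 libraries, 959, 676 and 1231 in DNP-HSA libraries, 1021, 1306 and 698 in SiO2 libraries, and 1061, 1216 and 743 in blank libraries. Rps15, a protein of the small subunit head, had 839, 474 and 749.8 FPKM in DNP-HSA+SiO2 libraries, 883, 491 and 848 in DNP-HSA libraries, 869, 905 and 454 in SiO2 libraries, and 949, 829 and 523 in blank libraries. Rps4x, one of 4 members on the X chromosome, had 793, 451 and 661 FPKM in DNP-HSA+SiO2 libraries, 812, 482 and 763 in DNP-HSA libraries, 832, 788 and 500.1 in SiO2 libraries, and 895, 789.7 and 483 in blank libraries. All 3 genes dipped in the same libraries, number 1 of the DNP-HSA groups and number 2 of the SiO2 and blank groups. Rpl41, which encodes the smallest ribosomal protein, had 876, 373 and 835 FPKM in DNP-HSA+SiO2 libraries, 813, 629.8 and 626 in DNP-HSA libraries, 903, 658 and 368 in SiO2 libraries, and 874, 568 and 596 in blank libraries. It followed the others less closely, since DNP-HSA library 2 and blank library 1 were as low as the library of their group that was lowest elsewhere.

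The spread between libraries of a group was nearly the same for the whole module. Blank library 2 was the lowest of its group in 76 of the 78 genes, SiO2 library 2 in 75, DNP-HSA library 1 in 76 and DNP-HSA+SiO2 library 1 in 75. Over all tested genes these libraries were the lowest of their group in 36.3%, 23.4%, 28.7% and 25.1%. On the log2 CPM scale (counts scaled to library size with TMM factors), the median gene of the module lay 0.41 below its group mean in DNP-HSA+SiO2 library 1, 0.43 below in DNP-HSA library 1, 0.56 below in SiO2 library 2 and 0.40 below in blank library 2, while the median of all tested genes lay from -0.01 to 0.03 around its group mean in every library. The ratio of SD to mean within a group had a median over the 78 genes of 0.241 in DNP-HSA+SiO2, 0.264 in DNP-HSA, 0.291 in SiO2 and 0.266 in blank (n = 3 each), close to the medians over all tested genes of 0.287, 0.268, 0.295 and 0.226.

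**Figure D2:**
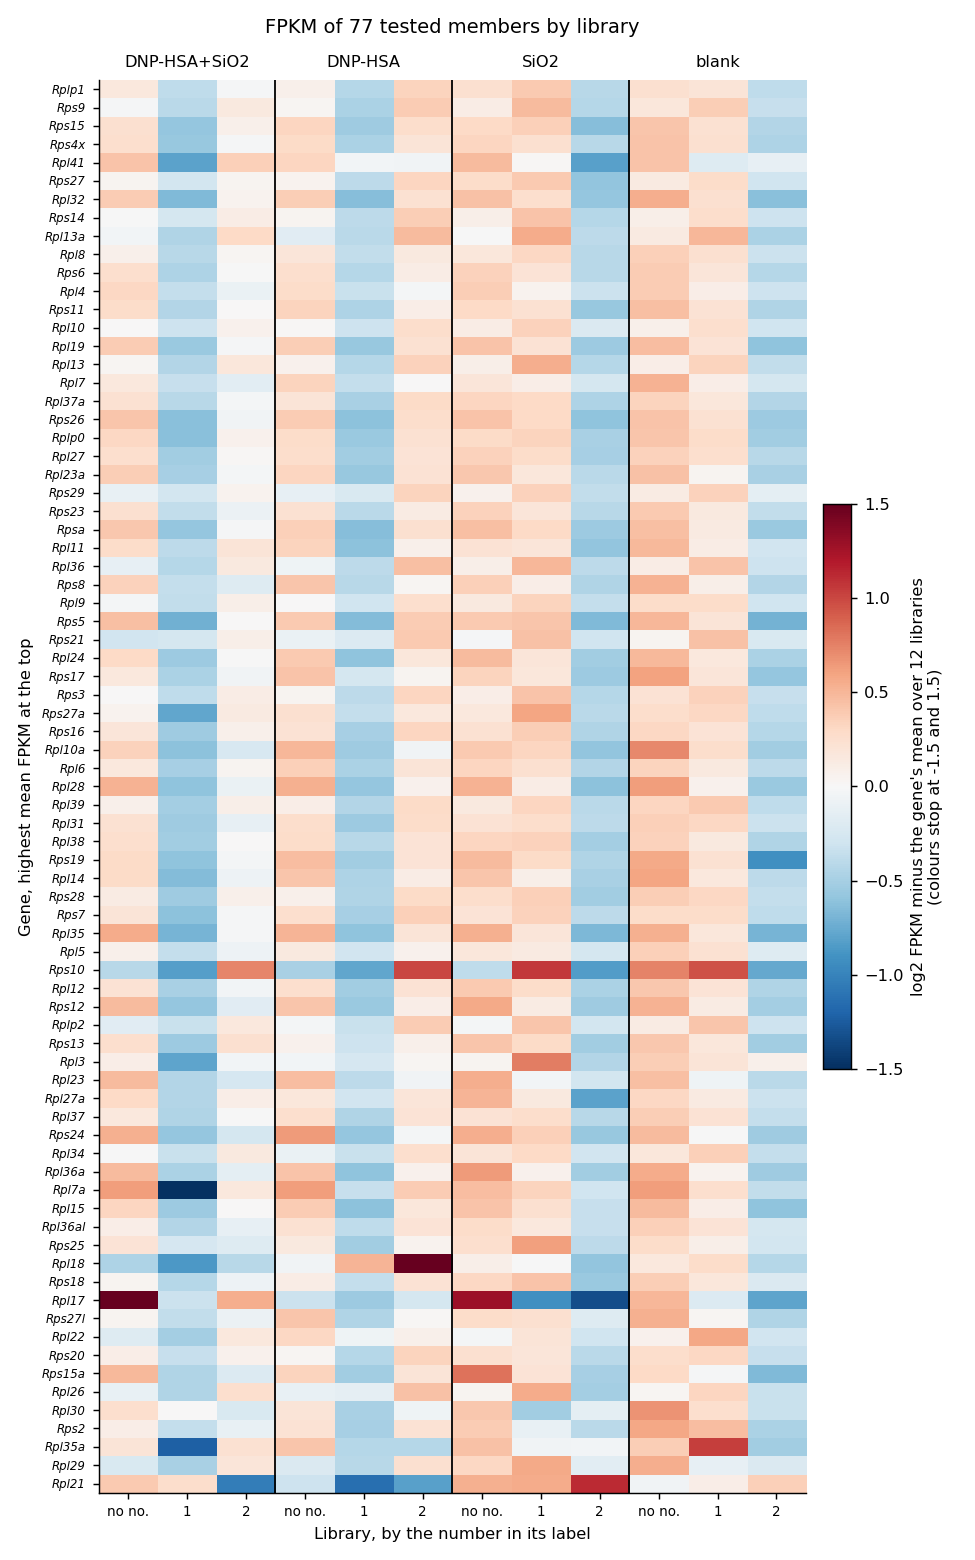
Log2 FPKM of 77 tested genes minus its mean over 12 libraries, with genes in rows from highest to lowest mean and libraries in columns by group and label number. The columns of DNP-HSA+SiO2 1, DNP-HSA 1, SiO2 2 and blank 2 are blue in nearly every row, being the lowest of their group in 75 or 76 of all 78 genes, and Rps10, Rpl7a, Rpl18, Rpl17, Rpl35a and Rpl21 depart from the common pattern.

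The share of all FPKM held by the 79 genes followed the same libraries. It was 6.19%, 4.10% and 5.88% in DNP-HSA+SiO2 libraries, 6.67%, 4.42% and 6.34% in DNP-HSA libraries, 6.47%, 6.73% and 4.09% in SiO2 libraries, and 7.4%, 6.60% and 4.41% in blank libraries. The means were 5.39 ± 1.13% in DNP-HSA+SiO2, 5.81 ± 1.22% in DNP-HSA, 5.76 ± 1.45% in SiO2 and 6.14 ± 1.55% in blank (SD, n = 3 each), so that the group means lay closer together than the libraries of any 1 group. As a share of estimated counts, which weighs long mRNAs more, the means were 2.29 ± 0.542% in DNP-HSA+SiO2, 2.42 ± 0.574% in DNP-HSA, 2.51 ± 0.669% in SiO2 and 2.53 ± 0.647% in blank. The Wilson 95% intervals of these shares were at most 0.00819 percentage points wide in any library. They cover counting error only. No test was run on the shares.

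**Figure D3:**
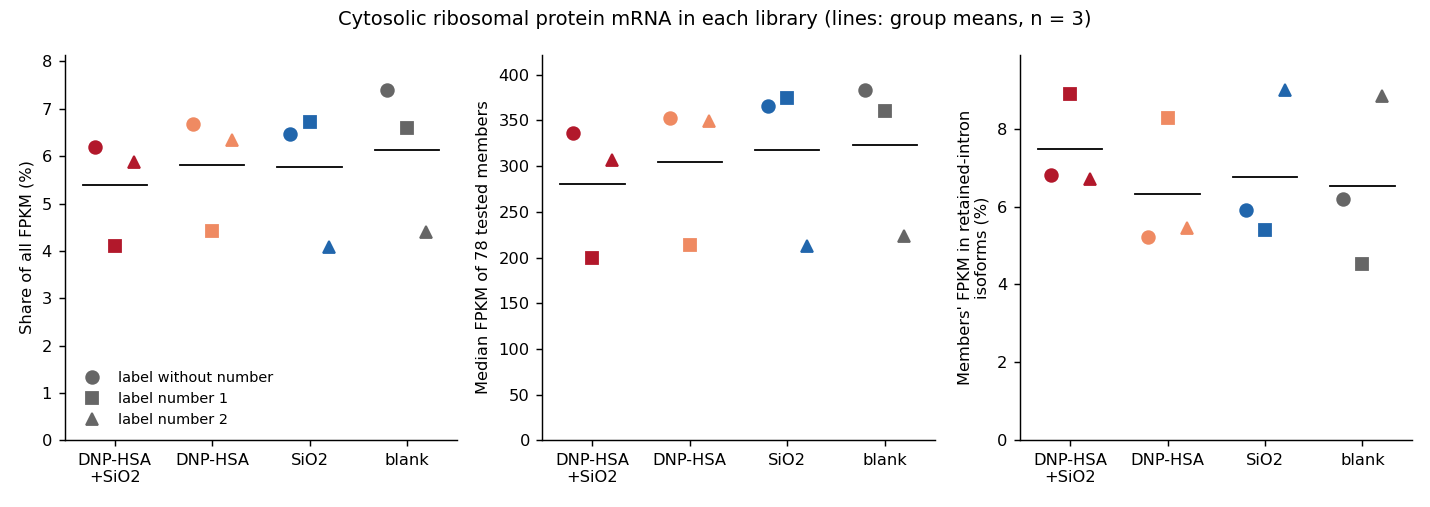
Left, share of all FPKM in the 79 genes (%), middle, median FPKM of the 78 tested genes, and right, share of the genes' own FPKM in retained-intron isoforms (%), for each library, with groups on the x axis, symbols for the number in the label, and lines for group means (n = 3). In every group 1 library stands apart, with a ribosomal protein share of 4.09% to 4.42% and the highest retained-intron share, 8.28% to 9.0%.

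Other measures differed in the same libraries. The retained-intron isoforms of the module took 8.28% to 9.0% of its FPKM in the lowest library of each group and 4.53% to 6.82% in the other libraries. Over all genes, retained-intron isoforms took 6.89% to 7.61% of counts in these 4 libraries and 3.85% to 6.5% in the other 8. Tpsab1, a tryptase gene of mast cells, was at 15.7 FPKM in DNP-HSA+SiO2 library 1, 13.3 in DNP-HSA library 1, 14.6 in SiO2 library 2 and 9.42 in blank library 2, against 27.3 to 448 FPKM in the other 8 libraries. Other mast cell genes on the list went both ways. Kit was the highest of its group in each of these 4 libraries, at 1244, 1414, 1354 and 1513 FPKM in the same order. Tpsb2 was the lowest of its group in each, at 992, 816, 991 and 865 FPKM. The unnumbered libraries were apart in their turn, with 405 to 448 FPKM of Tpsab1 and 21.2 to 24.7 FPKM summed over the 2 basophil markers, which reached 0.866 to 6.60 FPKM in the other libraries. The 8 macrophage and neutrophil markers summed to 9.80, 19.0 and 116 FPKM in DNP-HSA+SiO2, 9.08, 32.8 and 85.2 FPKM in DNP-HSA, 8.59, 89.2 and 36.3 FPKM in SiO2, and 9.70, 99.3 and 26.3 FPKM in blank. Their part in the ribosomal protein levels was not tested. Since these are bulk libraries, fewer cells of a type and less RNA per cell cannot be told apart.

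The central comparison asks whether SiO2, DNP-HSA or the 2 together changed ribosomal protein mRNA. No gene of the module passed the test in any comparison (edgeR quasi-likelihood F-test on counts, Benjamini-Hochberg adjusted p under 0.05 over 12862 genes). For SiO2 against blank, 0 of 78 passed with edgeR, and 0.0622% of all tested genes did. For DNP-HSA against blank, 0 of 78 passed, and 0.218% of all tested genes did. For DNP-HSA+SiO2 against blank, 0 of 78 passed, and 0.575% of all tested genes did. For DNP-HSA+SiO2 against DNP-HSA and against SiO2, 0 of 78 and 0.0% of all tested genes passed. For the interaction, which asks whether the change with both agents differs from the sum of their separate changes, 0 of 78 passed, and 0.0233% of all tested genes did.

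At an unadjusted p under 0.05 the module also gave few genes. In SiO2 against blank 1 of 78 was at this level, where 8.03% of all tested genes were. In DNP-HSA against blank 1 of 78 was, where 7.38% of all tested genes were. In DNP-HSA+SiO2 against blank there were 0 of 78, where 12% of all tested genes were. Within the DNP-HSA+SiO2 comparisons there were 0 of 78 against DNP-HSA, where 0.645% of all tested genes were, and 0 of 78 against SiO2, where 1.08% of all tested genes were. In the interaction there was 1 of 78, where 2.08% of all tested genes were. With DESeq2 0 of 78 passed the adjusted threshold in each of the 6 comparisons, in the same order, where 2.15%, 2.4%, 4.6%, 0.0311%, 0.0466% and 0.28% of all tested genes did. At an unadjusted p under 0.05 DESeq2 gave 2, 1, 0, 1, 0 and 1 of 78, where 9.78%, 8.94%, 14.1%, 1.03%, 1.73% and 2.68% of all tested genes were. With limma on log2(FPKM + 1) 0 of 78 passed, where 0.233%, 0.358%, 0.7%, 0.0%, 0.0% and 0.0311% of all tested genes did. At the unadjusted level limma gave 0, 0, 0, 1, 0 and 0 of 78, where 11.5%, 10.1%, 19.9%, 0.451%, 1.05% and 1.83% of all tested genes were.

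The module showed small changes whose sign depended on the scaling. With TMM scaling the median log2 change against blank was 0.28 in SiO2, 0.20 in DNP-HSA and 0.23 in DNP-HSA+SiO2, where all tested genes had medians of -0.01, 0.01 and -0.01. With TMM scaling 78 of 78 genes had positive estimates in SiO2, 72 in DNP-HSA and 76 in DNP-HSA+SiO2, where 48.4%, 50.8% and 48.8% of all tested genes did. With the values scaled to TPM (each library summing to the same total) the medians of the module were instead negative, -0.09, -0.08 and -0.17, and those of all tested genes were -0.32, -0.25 and -0.36. With TPM 9, 10 and 3 of 78 genes had positive estimates, where 18.9%, 19.3% and 17.3% of all tested genes did. Relative to all tested genes the module thus lay 0.29, 0.20 and 0.24 higher with TMM scaling and 0.23, 0.17 and 0.19 higher with TPM. Between the stimulated groups the median for DNP-HSA+SiO2 was 0.02 against DNP-HSA and -0.06 against SiO2 with TMM scaling, and -0.10 and -0.09 with TPM. The interaction had a median of -0.26 with TMM scaling and -0.01 with TPM, where all tested genes had -0.00 and 0.21. The standard error of a single gene had a median of 0.34 in the comparisons of groups and 0.47 in the interaction. The median over the module was not tested.

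**Figure D4:**
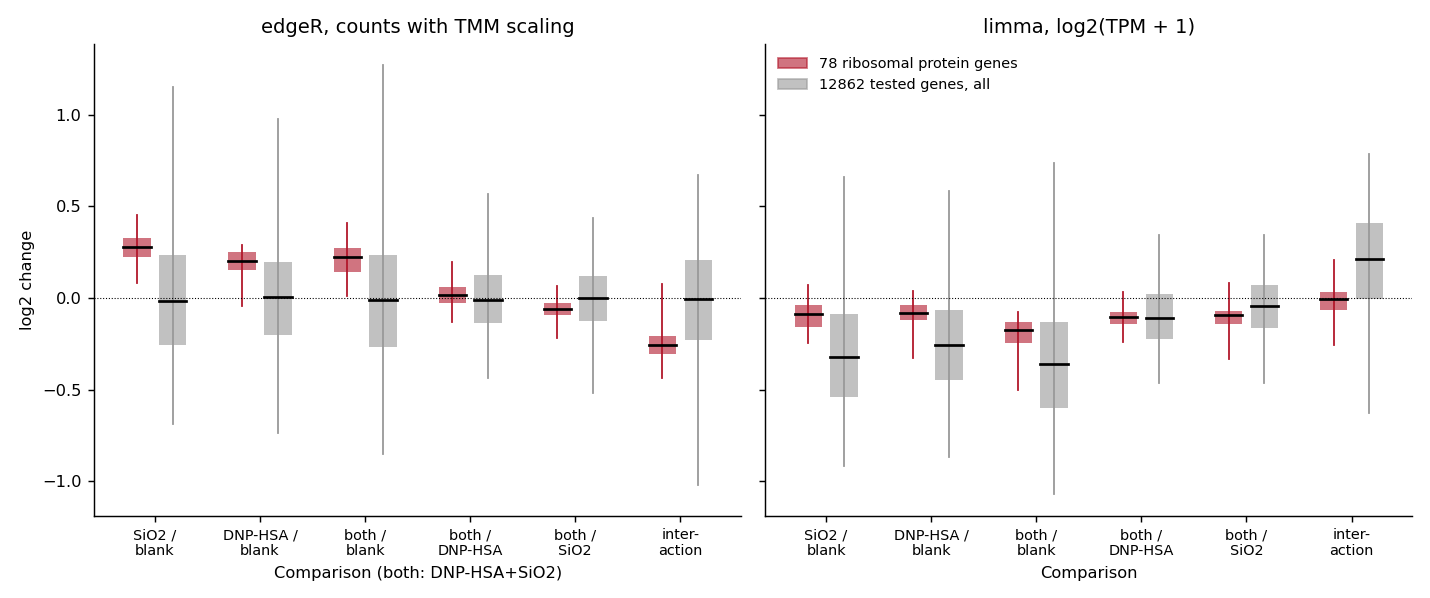
Log2 change of the 78 tested ribosomal protein genes (red) and of all 12862 tested genes (grey) in 6 comparisons, with TMM scaling of counts at left and log2(TPM + 1) at right. Black bars are medians, boxes the quartiles, and thin lines run from the 5th to the 95th percentile of genes; the red medians of the groups against blank are 0.20 to 0.28 at left and -0.17 to -0.08 at right, above the grey ones in both.

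The medians of both subunits were close to each other. With TMM scaling, the median in SiO2 against blank was 0.27 for the 47 large subunit genes and 0.29 for the 31 small subunit genes. In DNP-HSA against blank it was 0.19 and 0.21, and in DNP-HSA+SiO2 against blank 0.23 and 0.20. No test was run on this difference.

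Libraries with the same label number were also set side by side where the numbers pair them. For SiO2 minus blank the median log2 CPM difference over the module was 0.44 in the unnumbered pair, 0.23 in pair 1 and 0.10 in pair 2, with 77, 71 and 64 of 78 genes higher in SiO2. With TMM scaling 58 of 78 genes were higher and 0 lower in SiO2 in all 3 pairs, where 25.6% and 26.8% of all tested genes were. On the TPM scale 2 of 78 were higher and 27 lower in all 3 pairs, where 9.44% and 54.5% of all tested genes were. For DNP-HSA+SiO2 minus DNP-HSA the medians with TMM scaling were 0.37 in the unnumbered pair, 0.06 in pair 1 and -0.40 in pair 2. All tested genes had -0.017, -0.0048 and 0.0029. On the TPM scale the medians of the module were -0.11, -0.08 and -0.11, where all tested genes had -0.45, -0.13 and 0.27. Relative to all tested genes the module thus lay higher in the unnumbered pair and pair 1 and lower in pair 2, on both scales. With TMM scaling 1 of 78 genes was higher and 1 lower in all 3 pairs, where 8.26% and 9.59% of all tested genes were. On the TPM scale 1 of 78 was higher and 49 were lower in all 3 pairs, where 3.72% and 8.88% of all tested genes were.

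Without the library of each group with the lowest share of counts in the module, an alternative chosen after seeing the data, the medians against blank with TMM scaling were 0.33 in SiO2, 0.22 in DNP-HSA and 0.22 in DNP-HSA+SiO2. With these 2 libraries per group 0 of 78 genes and 0 of all tested genes passed in any comparison with edgeR. The libraries were left out by the module's own values, which changes its spread within groups by construction. This fit is therefore no separate test of the module, and no conclusion is drawn from it. A single library decided the size of the median more. It was 0.05 in SiO2 against blank without the unnumbered SiO2 library and 0.52 without SiO2 library 2. In DNP-HSA against blank it was 0.02 without DNP-HSA library 2 and 0.39 without DNP-HSA library 1. In DNP-HSA+SiO2 against blank it was -0.03 without the unnumbered DNP-HSA+SiO2 library and 0.38 without DNP-HSA+SiO2 library 1.

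Rpl17 had the largest change of the module in DNP-HSA+SiO2, and it rested on 1 library. Rpl17, at the exit of the peptide tunnel, had 321, 49.6 and 90.2 FPKM in DNP-HSA+SiO2 libraries, 49.7, 42.4 and 51.4 in DNP-HSA libraries, 150.5, 32.7 and 24.6 in SiO2 libraries, and 87.2, 53.5 and 35.9 in blank libraries. The unnumbered DNP-HSA+SiO2 library was far above the rest. In it the whole value was given to the isoform of 775 bases, and in the other 11 libraries to the isoform of 1326 bases. The log2 change was 1.32 (SE 0.73) against blank and 1.34 (SE 0.73) against DNP-HSA, with edgeR adjusted p = 0.545 and 1.0. Without the unnumbered DNP-HSA+SiO2 library these changes were 0.53 and 0.54. Pseudogene loci named Rpl17-ps, which are retrocopies of the mRNA, held 85.5% of the sum of gene and loci, and that sum ranged from 392 to 747 FPKM over the 12 libraries, 1.91-fold, where the gene alone ranged 13.1-fold. With the 7 loci added to the gene the change was 0.32 (SE 0.37) against blank.

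Pseudogene loci named after a member took most of the family's FPKM for some of the low members and not for others. Pseudogene loci under other symbols were not counted, so these shares are lower bounds. Reads of near-identical copies can be split between gene and locus, so the levels of such genes are uncertain. Pseudogene loci carrying the symbol of a member numbered 217, for 56 of the 78 tested genes, and they took 0.819% to 1.68% of all FPKM, most in the unnumbered blank library. In 9 families the loci held more than 50% of the sum. These included Rpl21 (98.8% in 14 loci), Rps2 (94.9% in 11 loci), Rpl35a (92.2% in 6 loci) and Rps18 (89.1% in 5 loci).

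Rpl21, a large subunit protein, was listed at 2.25, 2.06 and 0.837 FPKM in DNP-HSA+SiO2 libraries, 1.38, 0.784 and 0.977 in DNP-HSA libraries, 2.47, 2.52 and 3.72 in SiO2 libraries, and 1.66, 1.84 and 2.2 in blank libraries. SiO2 libraries were above the 3 blank libraries and DNP-HSA libraries were below them, without a call. The log2 change was 0.80 (SE 0.40) in SiO2 and -0.46 (SE 0.40) in DNP-HSA against blank, with edgeR adjusted p = 0.671 and 1.0. The locus Rpl21-ps15 had 99.3 to 222 FPKM, and with all loci added the changes were 0.32 and 0.21.

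Rps2 lies at the mRNA entry channel of the small subunit. It had 25.4, 18.5 and 22 FPKM in DNP-HSA+SiO2 libraries, 27.4, 16.8 and 27.5 in DNP-HSA libraries, 30.9, 22 and 17.9 in SiO2 libraries, and 35.5, 32.7 and 17 in blank libraries. Rps2-ps10 was at 319.6, 3.75 and 536 FPKM in DNP-HSA+SiO2 libraries, 393, 288 and 7.69 in DNP-HSA libraries, 342, 543 and 8.56 in SiO2 libraries, and 421, 5.51 and 365 in blank libraries. The locus was thus either at 288 to 543 FPKM or at 3.75 to 8.56 FPKM, in no order of the groups, and the sum of the family ranged 7.45-fold. Rps18-ps6 and Rps18-ps4 alternated in the same way. Rps18-ps6 was listed at 0 in SiO2 libraries unnumbered and 2, DNP-HSA library 2 and DNP-HSA+SiO2 library 2, and there Rps18-ps4 had 215 to 392 FPKM. In 7 of the other 8 libraries Rps18-ps4 was listed at 0 and Rps18-ps6 had 395 to 838 FPKM, and blank library 2 had 207 FPKM of Rps18-ps6 and 107 of Rps18-ps4.

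The other low members were Rpl29, Rpl35a and Rpl30. Rpl29 had 2.15, 1.80 and 2.85 FPKM in DNP-HSA+SiO2 libraries, 2.16, 1.89 and 2.97 in DNP-HSA libraries, 3.12, 3.74 and 2.26 in SiO2 libraries, and 3.66, 2.31 and 2.17 in blank libraries. Rpl35a, one of the genes mutated in human Diamond-Blackfan anaemia, had 24.6, 9.19 and 25 FPKM in DNP-HSA+SiO2 libraries, 28.6, 15.9 and 15.9 in DNP-HSA libraries, 29.1, 20.7 and 20.8 in SiO2 libraries, and 27.7, 43.9 and 14.9 in blank libraries. Rpl30 had 42.0, 35.3 and 30.0 FPKM in DNP-HSA+SiO2 libraries, 40.2, 25.1 and 33.8 in DNP-HSA libraries, 46.4, 24.5 and 31.9 in SiO2 libraries, and 56.2, 41.9 and 28.0 in blank libraries. The groups overlapped for all 3 genes. Pseudogene loci named after the gene held 92.2% of the sum for Rpl35a but 16.4% for Rpl29 and 22.6% for Rpl30. With these loci added Rpl29 reached 1.98 to 4.59 FPKM and Rpl30 reached 31.9 to 82.9 FPKM. Loci under other symbols were not counted.

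**Figure D5:**
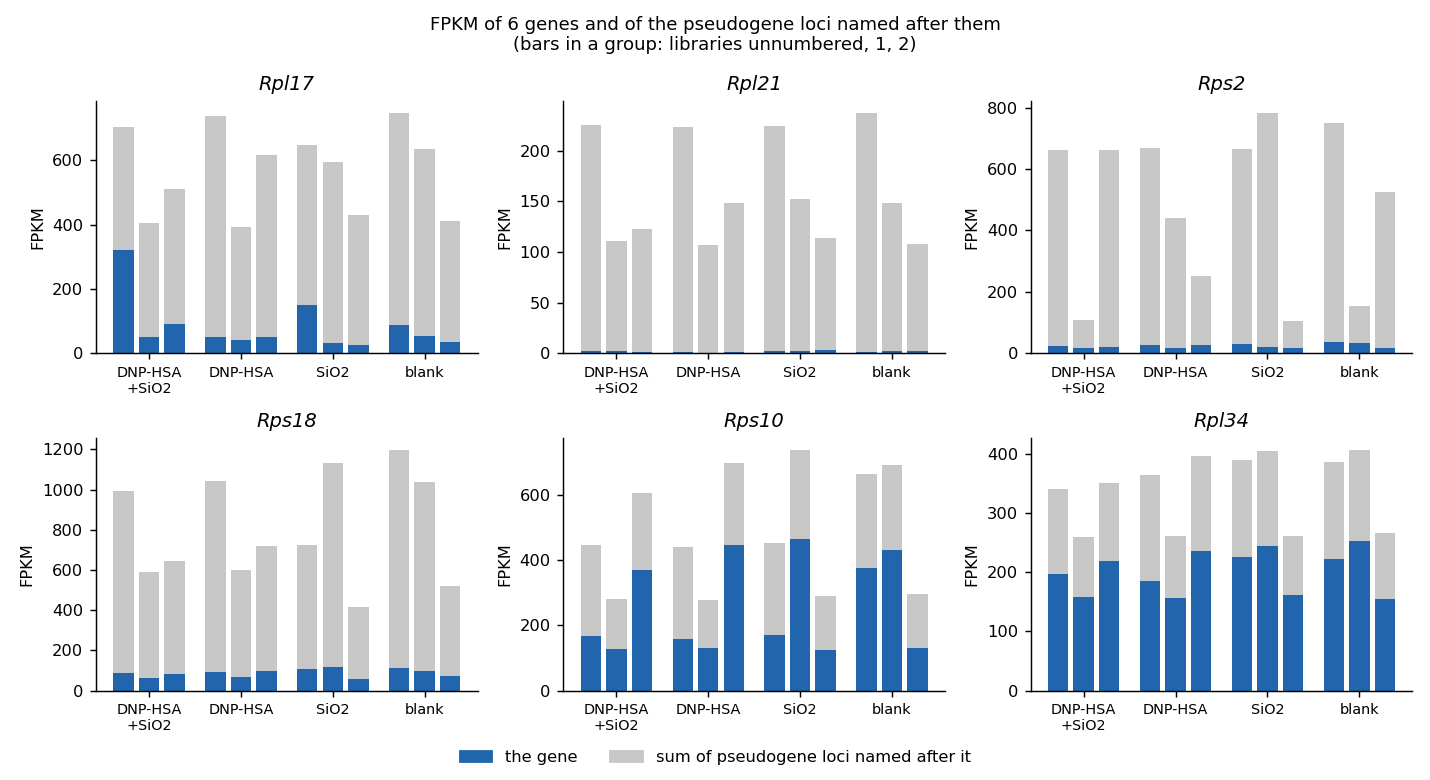
FPKM of 6 genes (blue) and of the summed pseudogene loci named after them (grey) in each library, with the groups on the x axis and, within a group, bars for the libraries unnumbered, 1 and 2. Rpl21, Rps2 and Rps18 are nearly all grey, the blue part of Rpl17 is large in the unnumbered DNP-HSA+SiO2 library alone at 321 FPKM, and Rpl34 has a steady split.

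Some values of single genes moved with the isoform that received them. Of the 78 genes, 17 had a different top isoform in different libraries. Rps10, which is ubiquitinated on collided ribosomes, had 167, 126 and 371 FPKM in DNP-HSA+SiO2 libraries, 159, 129.8 and 446 in DNP-HSA libraries, 172, 467 and 125 in SiO2 libraries, and 376, 434 and 131 in blank libraries. Its values fell into a high and a low set that crossed the groups. The isoform of 498 bases had 300.2 to 389 FPKM in the 5 high libraries and 63.1 to 81.4 FPKM in the other 7. Rpl18, a large subunit protein, had 70.4, 53.6 and 73.1 FPKM in DNP-HSA+SiO2 libraries, 94.1, 139 and 332 in DNP-HSA libraries, 104, 97.3 and 64.5 in SiO2 libraries, and 109, 118 and 72.3 in blank libraries. In DNP-HSA libraries 1 and 2 the isoform of 679 bases had 105 and 294 FPKM, and at most 0.9 FPKM in the other 10 libraries. Rpl7a had 225, 26.7 and 162 FPKM in DNP-HSA+SiO2 libraries, 225, 115 and 189 in DNP-HSA libraries, 200.1, 183 and 118 in SiO2 libraries, and 225, 173 and 112 in blank libraries. DNP-HSA+SiO2 library 1 was by far the lowest, and its protein_coding isoform of 914 bases was listed near 0 there.

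The further members given here, from either end of a comparison with TMM scaling, had changes below or not far above their standard errors. None of them passed. Rps13, a small subunit protein, had a log2 change of 0.44 (SE 0.32) in DNP-HSA+SiO2 against blank. It had 273, 157 and 271 FPKM in DNP-HSA+SiO2 libraries, 239, 184 and 241 in DNP-HSA libraries, 306, 279 and 159 in SiO2 libraries, and 304, 257 and 159 in blank libraries, and the groups overlapped. Rpl26, which lies near the tunnel exit, had a log2 change of 0.34 (SE 0.31) in DNP-HSA against blank. It had 42.8, 33.7 and 54.6 FPKM in DNP-HSA+SiO2 libraries, 42.5, 42.0 and 62.2 in DNP-HSA libraries, 47.2, 67.9 and 32.4 in SiO2 libraries, and 47.0, 57.5 and 36.6 in blank libraries, again with overlap. Rps25, which is needed for translation from some viral internal ribosome entry sites, had an interaction of -0.50 (SE 0.49). At the lower end in SiO2 against blank were Rpl22, Rps10 and Rpl30, with estimates of 0.04, 0.05 and 0.06. In DNP-HSA+SiO2 against blank these were Rps10, Rpl18 and Rps2, with -0.09, -0.03 and 0.01.

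Across the module, protein_coding isoforms held 87.9% to 92.5% of FPKM per library, from 196 of 442 isoforms, and the 168 retained-intron isoforms held 4.53% to 9.0%. Where only protein_coding isoforms were counted, no gene of the module passed in any comparison with edgeR.

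Both genes were expressed in the pairs Rps27 and Rps27l, Rpl36a and Rpl36al, and Rpl22 and Rpl22l1. Of Rpl3 and Rpl3l only Rpl3 was clearly expressed. Rps27 had 678, 544 and 677 FPKM in DNP-HSA+SiO2 libraries, 684, 503 and 827 in DNP-HSA libraries, 801, 864 and 438 in SiO2 libraries, and 727, 799 and 538 in blank libraries. Its paralog Rps27l, a p53 target in human cells, had 82.0, 61.8 and 75 FPKM in DNP-HSA+SiO2 libraries, 107, 58.4 and 80.5 in DNP-HSA libraries, 96.6, 94.1 and 69.6 in SiO2 libraries, and 115, 81.4 and 58.4 in blank libraries. The main form was higher in every library. Rpl36a and Rpl36al were closer, with means over the 12 libraries of 194 and 154 FPKM. Rpl36a had 258, 133 and 167 FPKM in DNP-HSA+SiO2 libraries, 249, 122 and 193 in DNP-HSA libraries, 289, 194 and 129 in SiO2 libraries, and 272, 192 and 127 in blank libraries. Rpl36al had 162, 112 and 139 FPKM in DNP-HSA+SiO2 libraries, 176, 116 and 174 in DNP-HSA libraries, 183, 169 and 119 in SiO2 libraries, and 194, 174 and 125 in blank libraries. Rpl22 and Rpl22l1, which can replace each other in mouse ribosomes, were at similar level. Rpl22 had 50.4, 40.6 and 64.5 FPKM in DNP-HSA+SiO2 libraries, 71.6, 55.4 and 60.8 in DNP-HSA libraries, 56.4, 66.2 and 46.7 in SiO2 libraries, and 60.6, 86.0 and 47.2 in blank libraries. Rpl22l1, outside the symbol pattern, had 71.9, 57.8 and 69.8 FPKM in DNP-HSA+SiO2 libraries, 84.6, 55.5 and 79.1 in DNP-HSA libraries, 94.3, 67.7 and 56.2 in SiO2 libraries, and 86.9, 71.6 and 46.3 in blank libraries. Rpl3 had 239.7, 129 and 218 FPKM in DNP-HSA+SiO2 libraries, 218, 188 and 228 in DNP-HSA libraries, 231, 384 and 165 in SiO2 libraries, and 291, 257 and 237 in blank libraries, and Rpl3l was near 0.

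Members with known roles beside translation were at levels within the main range. Rpl5 and Rpl11, which bind MDM2 when ribosome assembly is disturbed, ranged over 202 to 333 FPKM and 242 to 519 FPKM across the 12 libraries. Rps6, the substrate of the S6 kinases, ranged over 413 to 741 FPKM. Rps27a, which is made as a fusion with ubiquitin, ranged over 192 to 493 FPKM, and Rps19, another Diamond-Blackfan anaemia gene in humans, over 144 to 402 FPKM. Of ribosomal proteins whose symbols lie outside the pattern, Rps3a1 ranged over 366 to 643 FPKM and Fau over 396 to 729.8 FPKM, while the paralog Rpl7l1 was lower at 22.8 to 37.8 FPKM. None of these 3 or Rpl22l1 passed the test in any comparison with edgeR.

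Other genes of the translation machinery had medians near those of the module in SiO2 against blank. Of 21 other genes with TOP mRNAs, 0 passed in any comparison with edgeR, 0 were at an unadjusted p under 0.05, and the median log2 changes against blank were 0.26 in SiO2, 0.19 in DNP-HSA and 0.25 in DNP-HSA+SiO2 with TMM scaling, and -0.10, -0.08 and -0.13 with TPM. Eef1a1, the elongation factor that delivers tRNA, had 3449, 2023 and 2449 FPKM in DNP-HSA+SiO2 libraries, 3396, 2086 and 2626 in DNP-HSA libraries, 3597, 2725 and 2112 in SiO2 libraries, and 3501, 2781 and 2087 in blank libraries. Its lowest libraries were those of the ribosomal proteins. Of 29 translation initiation factors and 59 ribosome biogenesis factors, 0 passed in any comparison with edgeR. In the 3 comparisons with blank, 2, 1 and 2 of the initiation factors and 3, 2 and 6 of the biogenesis factors were at an unadjusted p under 0.05 in SiO2, DNP-HSA and DNP-HSA+SiO2. Of all tested genes, 8.03%, 7.38% and 12% were at this level in the same order. The medians of the initiation and biogenesis factors in SiO2 against blank were 0.22 and 0.27 with TMM scaling, and -0.12 and -0.11 with TPM. In DNP-HSA against blank they were 0.16 and 0.10 with TMM scaling, and -0.11 and -0.19 with TPM. The module there had 0.20 and -0.08. In DNP-HSA+SiO2 against blank the 2 lists had 0.20 and 0.19 with TMM scaling, and -0.20 and -0.21 with TPM.

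Mitochondrial ribosomal proteins, which serve the separate ribosomes of mitochondria, lay on the other side of the median of all genes. Of 78 tested, 0 passed in any comparison with edgeR, and 0, 3 and 5 were at an unadjusted p under 0.05 in SiO2, DNP-HSA and DNP-HSA+SiO2 against blank. The medians in these comparisons were -0.09, -0.10 and -0.09 with TMM scaling and -0.39, -0.36 and -0.48 with TPM, negative with both. The 28 tested subunits and factors of RNA polymerases I and III, which make ribosomal and transfer RNA, had medians of -0.09, -0.08 and -0.06 with TMM scaling and -0.40, -0.37 and -0.47 with TPM, with 0 passing and 3, 1 and 6 at an unadjusted p under 0.05. The 16 snoRNA host genes tested, several of which also carry TOP tracts, had medians of 0.35, 0.05 and 0.26 with TMM scaling and -0.02, -0.16 and -0.22 with TPM, with 0 passing and 0, 0 and 1 at an unadjusted p under 0.05. For each of these lists, the share of all tested genes at an unadjusted p under 0.05 with edgeR was 8.03%, 7.38% and 12% in the same order. None of these lists was tested as a set.

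Among 36 tested regulators of ribosomal protein mRNA, 1 passed, Mycn, a transcription factor of the MYC family. At an unadjusted p under 0.05 with edgeR were 5, 4 and 6 of the 36 in SiO2, DNP-HSA and DNP-HSA+SiO2 against blank. The shares over all tested genes were 8.03%, 7.38% and 12%. Mycn had 51.5, 27.2 and 17.9 FPKM in DNP-HSA+SiO2 libraries, 14.3, 23.5 and 51.0 in DNP-HSA libraries, 45, 24.8 and 14.8 in SiO2 libraries, and 2.31, 2.25 and 1.75 in blank libraries. All 9 stimulated libraries were above the 3 blank libraries. Its log2 change was 4.28 in DNP-HSA+SiO2 and 4.13 in DNP-HSA against blank, with edgeR adjusted p = 0.0283 and 0.0435, and 4.02 in SiO2, with adjusted p = 0.0707. Myc had 14.2, 12.4 and 16.0 FPKM in DNP-HSA+SiO2 libraries, 8.62, 19.5 and 17.3 in DNP-HSA libraries, 15.1, 18.9 and 19.1 in SiO2 libraries, and 5.69, 8.28 and 16.7 in blank libraries, and the groups overlapped. Larp1, the TOP-binding protein, had 9.68, 13.6 and 15.8 FPKM in DNP-HSA+SiO2 libraries, 15.8, 23.0 and 11.6 in DNP-HSA libraries, 9.64, 13.6 and 14.4 in SiO2 libraries, and 18.2, 25.7 and 25.9 in blank libraries. Larp1 was below the 3 blank libraries in all DNP-HSA+SiO2 and SiO2 libraries, with log2 changes of -0.54 and -0.67 that did not pass.

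For scale, the immediate early genes changed by far more in these libraries. Nr4a1, a nuclear receptor gene induced by receptor signalling, had 2690.4, 1931 and 1919 FPKM in DNP-HSA+SiO2 libraries, 1533, 1323 and 2894 in DNP-HSA libraries, 2159.6, 917 and 678 in SiO2 libraries, and 21.9, 8.25 and 34.0 in blank libraries. Of 16 such genes, 8 rose in DNP-HSA+SiO2, 7 in DNP-HSA and 6 in SiO2 against blank (edgeR adjusted p under 0.05), with median log2 changes of 4.52, 4.10 and 3.72. Of the 24 genes of ribosome quality control and surveillance, 0 passed with edgeR, and 3, 3 and 2 were at an unadjusted p under 0.05 in DNP-HSA+SiO2, DNP-HSA and SiO2 against blank. At that level were 12%, 7.38% and 8.03% of all tested genes. The highest log2 changes among the 24 genes were 3.09, 2.75 and 2.81, all of Cdkn1a, a p53 target that arrests the cell cycle.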

How the data were processed

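The authors deposited an isoform table with FPKM and whole-number estimated counts for each of 12 libraries. Per the labels, mRNA was selected with oligo(dT) and sequenced from stranded libraries in paired reads, and StringTie 1.3.4d, HISAT2 2.0.4 and cutadapt 1.9 stand in the submitters' processing notes. No source used here gives the build, and the 442 member isoforms lie at the coordinates of GENCODE M21 (GRCm38).

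Values were summed per gene. The main test was edgeR 4.0.16 (R 4.3.3, quasi-likelihood, TMM scaling, trended and robust dispersion) on summed counts of the 12862 genes with at least 1 FPKM in 3 libraries, all libraries in 1 fit, with Benjamini-Hochberg adjustment over all genes. The standard error is the log2 change over the square root of F. Alternatives used DESeq2 1.42.0, limma 3.58.1 on log2(FPKM + 1), log2(FPKM + 0.1) and log2(TPM + 1), other scalings and filters, and each library left out. The code was tested on simulated data. The members, lists and the rule for genes named with all values (the 5 highest and 5 lowest, stalk genes, paralog pairs, and the extremes of each comparison) were chosen with earlier results of these data known. Some genes that this rule covers are not reported here.

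Same-numbered libraries deviated together from their group means across genes in SiO2 and blank (r = 0.613, 0.634 and 0.611 for unnumbered, 1 and 2) and in DNP-HSA+SiO2 and DNP-HSA (r = 0.493, 0.638 and 0.273). In the other comparisons libraries 1 and 2 did not, as in DNP-HSA and blank (r = 0.743, -0.106 and -0.0865). No pairing was used there, except in an alternative fit with a block by label number over all libraries. DNP-HSA library 1 deviated with blank library 2 (r = 0.602) and DNP-HSA library 2 with blank library 1 (r = 0.584). These r are over genes, which are not independent.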

Additional observations from a re-analysis of the deposited data

How the results depend on the processing

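Under 27 other settings, no member passed the adjusted threshold in any comparison that the setting gives. A replicate block over all libraries gave median log2 changes of 0.26 in SiO2, 0.22 in DNP-HSA and 0.20 in DNP-HSA+SiO2 against blank. It called 0 of 78 members, where 5, 66 and 101 of 12862 tested genes were called in these comparisons. For DNP-HSA and DNP-HSA+SiO2 against blank, this block joined libraries 1 and 2 by numbers that did not pair. A replicate block within the pairs of groups whose numbers pair gave 0.25 for SiO2 against blank, 0.01 for DNP-HSA+SiO2 against DNP-HSA and -0.23 for the interaction. It called 0 members, where 4, 0 and 0 of all tested genes were called. A pairing of DNP-HSA and blank libraries across numbers, as they deviated together, was not fitted. With each library left out in turn, the median ranged over 0.05 to 0.52 in SiO2, 0.02 to 0.39 in DNP-HSA and -0.03 to 0.38 in DNP-HSA+SiO2 against blank, -0.24 to 0.20 for DNP-HSA+SiO2 against DNP-HSA, -0.31 to 0.15 against SiO2, and -0.50 to -0.04 for the interaction. Over the other settings the lowest medians came with TPM, -0.09, -0.08 and -0.17 against blank. With members summed with their pseudogene loci, a setting chosen after seeing the data, the medians against blank were 0.29, 0.21 and 0.23. With 3 libraries per group the median standard error of a member was 0.34, which limits what these comparisons can show for a single gene.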
